A study of Mus musculus with 12 samples.

Results

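Dendritic cells are the antigen-presenting cells that carry tumor antigen to T cells, and 10 genes that mark them were read in every tumor library. They were chosen as a list of named genes, covering type 1 conventional dendritic cells (Batf3, Xcr1, Clec9a), conventional dendritic cells in general (Flt3, Zbtb46, Itgax, Ly75), type 2 conventional and monocyte-derived cells (Cd209a), migrating cells (Ccr7) and plasmacytoid cells (Siglech). They are 10 of the 32288 rows of each count table, and each name matched 1 row. RNA-seq was made from 12 subcutaneous tumors of DBA/2 mice, 1 tumor per library and 3 mice per group. The tumor cells were P815, a mouse mastocytoma line. P815-IFNG was a single-cell clone that carried the light-sensitive activator GAVPO under the EF-1α promoter, a light-inducible Ifng-Cxcl10 cassette with a secreted luciferase (hGluc), and an mRuby-luciferase reporter. P815-M was another single-cell clone, which carried the mRuby-luciferase reporter that both lines share and no GAVPO or cytokine cassette. From 7 days after implantation, the light groups received blue light for 12 h per day for 6 days, and the dark groups did not. Each line was 1 clone, so a difference between the lines cannot be told apart from a difference between clones. The mice were 9 to 10 weeks old when the cells were implanted.

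Conventional dendritic cells grow from bone marrow precursors under FLT3 ligand, which FLT3 binds, and ZBTB46 is a transcription factor of that lineage. BATF3 is needed for the type 1 subset, which takes up dead cells through CLEC9A, meets XCL1-producing lymphocytes through XCR1 and cross-presents antigen to CD8 T cells. Mature cells display CCR7 and follow CCL19 and CCL21 to the lymph node, while plasmacytoid cells, marked by SIGLECH in mice, make type I interferon. None of these genes is limited to dendritic cells: Itgax (CD11c) is also used by macrophages, Ly75 (DEC205, the dendritic cell protein stained in the study) by epithelium and B cells, and Ccr7 by T cells.

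A pair of library kinds has to be kept apart. Replicate 3 of P815-IFNG light and replicate 3 of P815-IFNG dark held 41473500 and 42338096 counts and are called deep here, while the other 10 libraries held 2211234 to 2946792. No P815-M library was deep. The kinds also differed in what they counted: the light-strand mitochondrial gene mt-Nd6 took 3.56% (95% Wilson interval 3.54 to 3.59%) and 3.85% (3.83 to 3.88%) of mitochondrial counts in the deep libraries and 29.0 to 47.9% in the others. Where genes on opposite strands share exon bases, the kinds differed as well. Gm13571, antisense to Ly75, had 42 to 116 counts in the 10 libraries, more than Ly75 in 10 of 10, and 31 and 51 in the deep ones, where Ly75 had 591 and 621. Snx22 had 4861 to 6517 counts in the 10 libraries against 157 to 357 for Ppib on the other strand, and 10734 and 10882 in the deep ones against 16012 and 15939. The kit marks strand, so the counts of the 10 libraries may hold reads from the strand opposite to each gene. Whether they do was not tested, and if so, their counts, CPM and RPKM below would not be levels of the genes' own mRNA. The GAVPO sequence had 1040 to 79894 counts in P815-IFNG libraries and 0 to 4 in P815-M libraries, so the line labels held. Values are given as counts and as CPM, counts scaled to a common library size after TMM normalization. A floor of 3 counts, taken as the limit of detection, was worth 0.931 to 1.56 CPM in the 10 libraries and 0.0669 to 0.0694 CPM in the deep ones, and floors and intervals cover counting error only.

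The promoter stretches below are shown because BATF factors, to which the member BATF3 belongs, bind AP-1 sites of the form TGANTCA. The motif is its own reverse complement, so 1 search covered both strands. Of the 10 genes, 9 had a RefSeq promoter (250 bases before to 50 after the start, GRCm38.p6). The motif was found in a promoter of 2 of these 9 genes. Of all 32851 promoters, 7.81% held it, a share per promoter and not per gene, so the units differ. Each 60-base window is read 5′ to 3′ on the gene's own strand, with the motif in capitals.
Zbtb46 (chr2:181424416-181424475, minus strand, TGANTCA from 61 to 55 bases upstream): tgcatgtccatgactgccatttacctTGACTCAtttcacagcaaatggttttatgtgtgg
Itgax (chr7:128129468-128129527, plus strand, TGANTCA from 56 to 50 bases upstream): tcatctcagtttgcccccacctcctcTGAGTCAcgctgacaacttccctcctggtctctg
The Zbtb46 window lies inside the gene's GENCODE span given below, at an internal RefSeq start and not at the gene's 5′ end, and the Itgax window lies at its gene's 5′ end. A match is a string of letters and no measured binding site. The counts of both genes shown are given below with those of the other members.

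Detection differed widely between the 10 genes. Ly75, Itgax, Zbtb46, Batf3 and Ccr7 were above 3 counts in 12 of 12 libraries. Xcr1, Clec9a and Cd209a were above 3 counts in 8 of 12, and Flt3 in 6 of 12, of which 2 were the deep libraries. Siglech was above 3 counts in the 2 deep libraries and in 0 of the 10 others. By library, 5 to 9 genes passed in the 10 libraries, fewest in P815-IFNG light replicate 2, and 9 and 10 passed in the deep light and dark libraries. Scaled down to the median total of the others, the deep libraries would keep 6 and 7 genes. The deep libraries held 80.7% of the 9459 counts of the 10 genes, from 33.6% for Xcr1 to 89.7% for Ccr7.

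**Figure D1:**
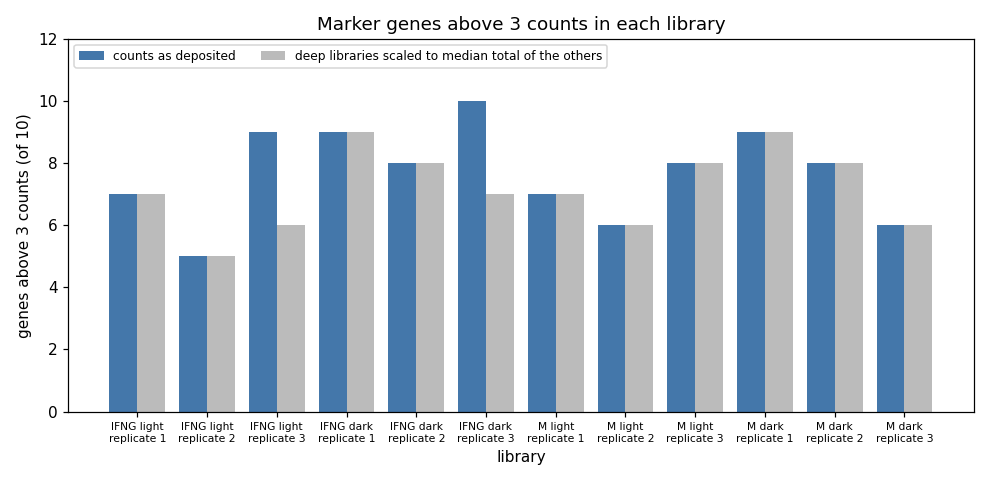
Bars give the number of the 10 marker genes above 3 counts (y axis) in each of the 12 libraries (x axis), blue as deposited and grey with the 2 deep libraries scaled to the median total of the others. The deep libraries fall from 9 to 6 and from 10 to 7 genes once scaled, inside the 5 to 9 of the other 10 libraries.

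The levels per length of exon (RPKM, the CPM per 1000 exon bases, from GENCODE M21 exons) put Ccr7 first in both kinds of library. In the 10 libraries Ccr7 stood at 11.9 ± 6.09 RPKM (SD, n = 10), Itgax at 3.81 ± 3.04, Batf3 at 2.91 ± 1.46, Cd209a at 2.41 ± 3.59 and Ly75 at 1.60 ± 0.617. Clec9a (0.855 ± 0.730), Xcr1 (0.665 ± 0.386), Zbtb46 (0.552 ± 0.215), Flt3 (0.253 ± 0.265) and Siglech (0.0900 ± 0.132) followed. Between Itgax and Ly75, and again between Clec9a and Zbtb46, neighbours in this order lay within 1 SD of each other. In the deep libraries the order was different below Ccr7, which stood at 32.7 RPKM in light and 26.3 in dark: Ly75 (1.98 and 2.01) and Cd209a (1.93 and 2.12) came next, and Itgax was at 0.631 and 0.679, Batf3 at 1.46 and 0.573, and Xcr1 at 0.0156 and 0.165.

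Batf3, the transcription factor of the type 1 subset, had 12 and 6 counts in P815-IFNG light, 15 and 6 in P815-IFNG dark, 14, 11 and 17 in P815-M light and 20, 4 and 5 in P815-M dark, with 101 and 41 in the deep light and dark libraries. In CPM the P815-M light tumors (5.27 to 7.60) lay above the P815-IFNG light tumors (2.34 to 4.83) without overlap, and the light and dark groups of each line overlapped. Its gene lies at chr1:191097847-191108945 on the plus strand.

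Xcr1, the receptor for XCL1 (chr9:123852315-123862029, minus strand), had 11 and 3 counts in P815-IFNG light, 12 and 2 in P815-IFNG dark, 10, 6 and 10 in P815-M light and 9, 0 and 8 in P815-M dark. The deep libraries held 3 and 33 counts, so the deep light library was at the floor although it was read more than any of the 10. All groups overlapped, and 0.0694 CPM in the deep light library lay below the 1.46 and 4.42 CPM of the other P815-IFNG light tumors.

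Clec9a encodes the receptor for actin exposed by dead cells (chr6:129408862-129424763, plus strand). It had 5 and 3 counts in P815-IFNG light against 19 and 19 in P815-IFNG dark, or 2.01 and 1.46 against 5.90 and 6.37 CPM. The deep light library held 25 counts (0.579 CPM) and the deep dark library 59 (1.32 CPM). Light was thus below dark within each kind, and over all 6 tumors the groups overlapped because the deep dark library lay below the light tumors of the other kind. In P815-M the counts were 2, 2 and 5 in light and 5, 12 and 0 in dark, which overlap. Of its exon bases, 5.59% are shared with Clec1b on the same strand.

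Flt3, the growth factor receptor of the lineage (chr5:147330741-147400489, minus strand), followed the same arrangement at lower counts. It had 3 and 0 counts in P815-IFNG light and 9 and 8 in dark, with 26 and 70 in the deep light and dark libraries. On the CPM scale light ran from 0 to 1.21 and dark from 1.56 to 2.79, so the groups did not overlap. P815-M light had 0, 1 and 2 counts and P815-M dark 5, 10 and 1, and these overlapped in CPM, since the 0.411 CPM of dark replicate 3 lay within the light tumors.

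Zbtb46, the lineage factor (chr2:181387762-181459426, minus strand), had 16 and 7 counts in P815-IFNG light, 15 and 19 in dark, and 116 and 236 in the deep light and dark libraries. P815-M light had 12, 16 and 8 counts and P815-M dark 7, 5 and 8. In CPM P815-M light (3.58 to 7.66) lay above P815-M dark (2.60 to 3.29), and P815-IFNG dark (4.66 to 6.37) also lay above P815-M dark, both without overlap. P815-M dark was thus the lowest group and also the tightest, at 2.88 ± 0.366 CPM (SD, n = 3).

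Itgax, which encodes the integrin CD11c (chr7:128129547-128150657, plus strand), had 33 and 7 counts in P815-IFNG light, 88 and 49 in P815-IFNG dark, 26, 41 and 109 in P815-M light and 84, 10 and 6 in P815-M dark. The deep libraries held 131 and 146 counts, or 3.03 and 3.26 CPM, below every other P815-IFNG tumor. The spread inside groups was wide, from 2.47 to 32.8 CPM in P815-M dark, and the lowest P815-M light tumor (13.5 CPM) lay just above the highest P815-IFNG light tumor (13.3 CPM). Of the 50-base stretches of its transcripts, 8.02% also occur in Itgad, so some of its counts may depend on how such reads were placed.

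Ly75, the gene of the endocytic receptor DEC205 (chr2:60292103-60383303, minus strand), had 32 and 7 counts in P815-IFNG light, 44 and 21 in P815-IFNG dark, 26, 37 and 21 in P815-M light and 37, 14 and 28 in P815-M dark. The deep libraries held 591 and 621 counts, or 13.7 and 13.9 CPM. The group means were close, at 9.99 ± 5.71, 11.5 ± 3.88, 13.5 ± 4.16 and 11.1 ± 3.60 CPM (SD, n = 3) in the same order of groups, and every pair of groups overlapped. An antisense gene, Gm13571, covers 3.61% of its exon bases.

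Cd209a, a DC-SIGN family lectin (chr8:3743397-3748984, minus strand), was highest in 1 tumor. P815-IFNG dark replicate 2 had 57 counts (19.1 CPM), against 5 (1.55 CPM) in replicate 1 of that group and 1 and 0 counts in P815-IFNG light. The deep libraries held 132 and 150 counts (3.06 and 3.35 CPM), and P815-M had 7, 2 and 9 in light and 6, 11 and 1 in dark. The same tumor, P815-IFNG dark replicate 2, had the highest summed level of the 6 other Cd209 genes (Cd209b to Cd209g), at 121 CPM against 9.84 to 39.7 CPM in the other 11 libraries.

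Ccr7, the receptor for CCL19 and CCL21 (chr11:99144196-99155077, minus strand), was the most abundant of the 10 per length. It had 26 and 41 counts in P815-IFNG light, 94 and 117 in P815-IFNG dark, 30, 24 and 65 in P815-M light and 119, 37 and 38 in P815-M dark. The deep light library had 2795 counts (64.7 CPM) and the deep dark library 2332 (52.1 CPM), above every other tumor of the series. Among the other P815-IFNG tumors light (10.5 and 20.01 CPM) lay below dark (29.2 and 39.2 CPM), while the deep pair ran the other way. Its ligands Ccl19, Ccl21a, Ccl21b and Ccl21c are listed at 0 in all 12 libraries. The annotation holds Ccl19 and Ccl21a 2 times each and Ccl21b 3 times, and reads that fit several near-identical copies are not counted at the default setting, so a 0 here does not show that they were not expressed.

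Siglech, the plasmacytoid marker (chr7:55768178-55778925, plus strand), had 16 and 12 counts in the deep libraries and 0 to 3 in the others, with 0 in 6 libraries. At this depth no difference between groups could be detected, and no fold is given.

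**Figure D2:**
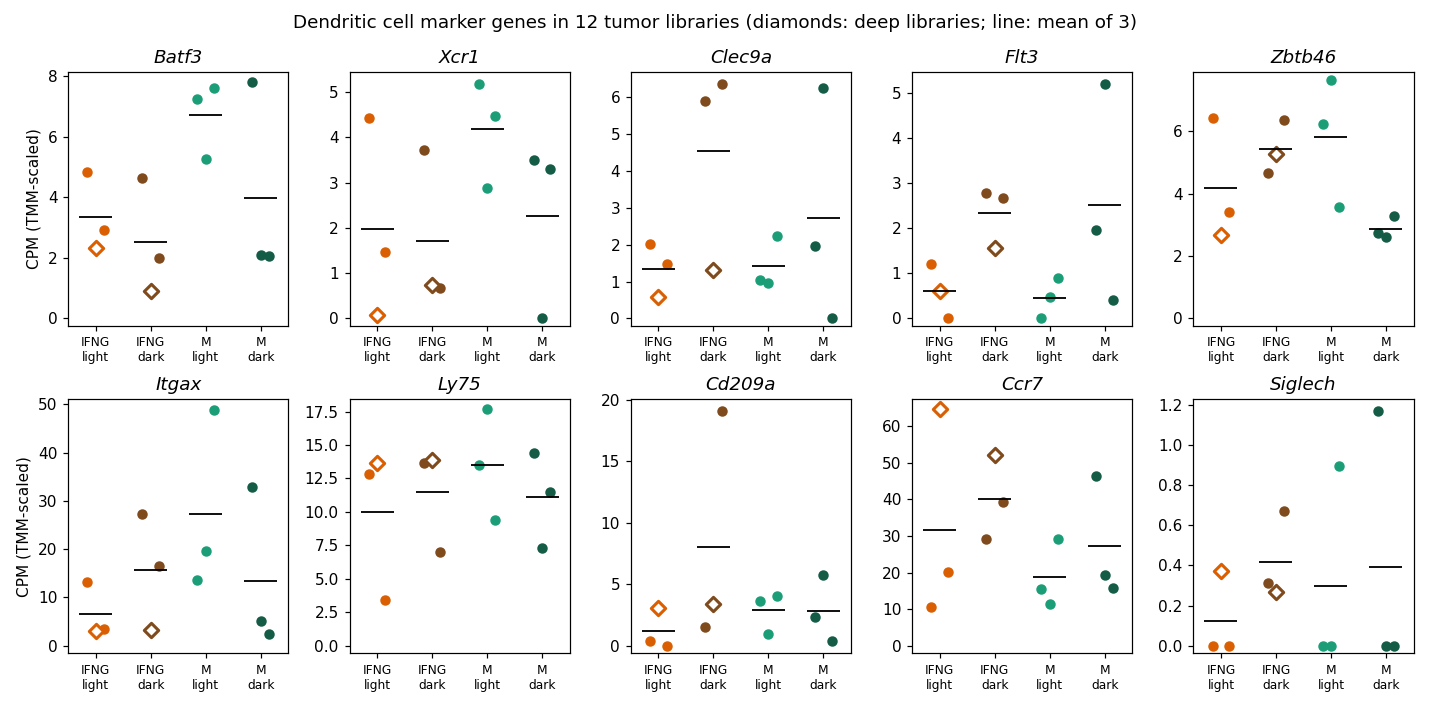
Each panel gives 1 gene's level in CPM (y axis, linear, its own range) in the 4 groups (x axis). Points are the 10 libraries, open diamonds the 2 deep ones and lines the mean of 3. Flt3 is lower in all 3 P815-IFNG light tumors than in the dark ones, Ccr7 diamonds stand above every point at 64.7 and 52.1 CPM, and Itgax diamonds stand near the bottom at 3.03 and 3.26 CPM.

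Whether light changed these genes in the line that carried the light-inducible Ifng-Cxcl10 cassette was asked first. Comparing P815-IFNG light with dark, 0 of the 10 genes passed (edgeR's quasi-likelihood test, Benjamini-Hochberg adjusted p of at most 0.05 over 18804 genes and a log2 fold change of at least 1 in size), beside 0% of all genes tested. At an unadjusted p under 0.05 there were also 0 of the 10, against 2.18% of all genes. DESeq2 called 0 and put 1 gene there, Cd209a (unadjusted p = 0.0328, DESeq2 adjusted p = 1). Fold changes were below 0 for 8 of the 10 genes, beside 51.6% of all genes, and above 0 for 2, beside 48.3%, and their median was -0.64 beside -0.02 over all genes. Groups did not overlap for 1 gene in the lower direction (Flt3), beside 2.75% of all genes, and for 0 in the higher direction, beside 0.994%. With 3 tumors against 3, the exact two-sided permutation test cannot go below p = 0.1, which was the value of Flt3.

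The fitted log2 fold changes of light against dark in P815-IFNG lay furthest from 0, over the 12 libraries, for Cd209a (-2.44 ± 1.21, SE), Flt3 (-1.88 ± 1.08), Clec9a (-1.82 ± 1.12) and Itgax (-1.27 ± 1.02). Zbtb46 (-0.40 ± 0.50), Ccr7 (-0.32 ± 0.63), Ly75 (-0.19 ± 0.52), Xcr1 (0.14 ± 1.35) and Batf3 (0.45 ± 0.74) had values smaller than their errors. All had an edgeR adjusted p of 1. The Cd209a value rested on single tumors: it was -0.84 without P815-IFNG dark replicate 2, and without light replicate 3 the light group held 1 count. With each library left out in turn Itgax ran from -2.34 (without light replicate 1) to -0.58 (without dark replicate 1), Flt3 from -2.50 to -1.45 and Clec9a from -2.36 to -1.31.

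Within each kind of library the light to dark ratio of summed counts showed where both kinds pointed one way. The intervals that follow are exact 95% conditional intervals of the counts, which leave out the spread between tumors, and the deep pair is 1 tumor against 1, with no test. Flt3 had a ratio of 0.385 (0.236 to 0.612) in the deep pair and 0.241 (0.0453 to 0.835) in the other 4 tumors. Clec9a had 0.439 (0.264 to 0.712) and 0.288 (0.116 to 0.627). Both genes were lower in light in each kind, with both counting intervals below 1. Itgax, Cd209a, Zbtb46 and Ly75 were also below 1 in both kinds, and Batf3 was above 1 in both. For each of those genes at least 1 of the intervals reached across 1. Ccr7 was at 1.24 (1.18 to 1.31) in the deep pair and 0.434 (0.325 to 0.575) in the others, so the kinds disagreed in direction. Cd209a stood at 0.912 (0.717 to 1.16) in the deep pair and 0.0221 (0.000550 to 0.128) in the others, where light held 1 count in all. Itgax likewise had 0.930 (0.729 to 1.19) and 0.400 (0.274 to 0.572). Batf3 was the gene with the highest ratio in the deep pair, 2.55 (1.76 to 3.77), and had 1.17 (0.589 to 2.31) in the others. Xcr1 had 0.0943 (0.0185 to 0.300) in the deep pair against 1.37 (0.605 to 3.10) in the others, Zbtb46 0.510 (0.405 to 0.639) against 0.926 (0.521 to 1.62), and Ly75 0.987 (0.880 to 1.11) against 0.821 (0.537 to 1.24).

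**Figure D3:**
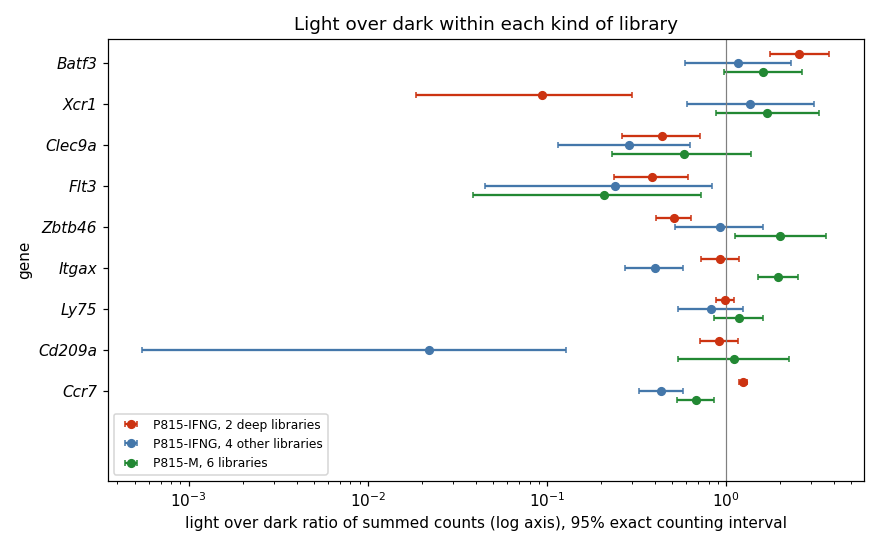
Points give the light over dark ratio of summed counts scaled by library size (x axis, log scale) for 9 genes (y axis), with exact 95% counting intervals as bars, in the deep P815-IFNG pair (red), the 4 other P815-IFNG tumors (blue) and the 6 P815-M tumors (green). Flt3 lies below 1 in all 3, at 0.385, 0.241 and 0.207, whereas Ccr7 lies above 1 in the deep pair (1.24) and below it elsewhere.

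Without the deep libraries, 9 of the 10 genes could be tested in the 10 remaining ones. In P815-IFNG light against dark 0 were called, beside 0.0059% of all genes. In P815-M light against dark 0 were called beside 0.927%. Between the lines 0 were called in light, beside 39 of 16944 genes, and 0 in dark, beside 2.19%. Cd209a (unadjusted p = 0.00263, edgeR adjusted p = 0.280) and Ccr7 (unadjusted p = 0.0293, edgeR adjusted p = 0.428, log2 fold change -1.19 ± 0.50) were below 0.05 before adjustment in P815-IFNG light against dark, or 2 of 9 members beside 10.7% of all genes in that fit. In P815-M light against dark it was 0 of 9 beside 14%, and between the lines in light 0 of 9 beside 10.3%.

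The summed level of endothelial cell genes was, like Flt3 and Clec9a, lower in P815-IFNG light than in dark within each kind of library. The 5 endothelial genes (Pecam1, Cdh5, Kdr, Tie1 and Emcn) summed to 25.2 to 31.7 CPM in P815-IFNG light and 39.8 to 122 CPM in P815-IFNG dark, with the deep libraries lowest in both groups. All 5 had negative fold changes, beside 51.6% of all genes. Of these, 4 had an unadjusted p under 0.05, beside 2.18% of all genes, and 0 were called, beside 0%. Fold changes there were also negative for 7 of 8 T cell, 6 of 6 other Cd209, 5 of 6 mast cell and 4 of 5 B cell genes. They were positive for 6 of 10 macrophage and 4 of 5 NK cell genes. In P815-M light the endothelial sum was 25.4 to 47.0 CPM. In P815-M dark it was 69.9 and 90.1 CPM in replicates 1 and 2 and 17.7 CPM in replicate 3, the tumor where Flt3 had 1 count and Clec9a 0. The part of endothelial cells in the values of Flt3 and Clec9a was not tested. In bulk tumors fewer cells of a type and less RNA per cell cannot be told apart.

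P815-M carried no light-inducible cytokine cassette, and the study used it as the control for light itself. It also lacked GAVPO and was another clone. In P815-M light against dark, 0 of the 10 genes passed beside 0% of all genes, 0 had an unadjusted p under 0.05 beside 2.71%, and DESeq2 gave 0 on both counts. Fold changes were above 0 for 6 of 10 genes, beside 50.7%, and below 0 for 4, beside 46.6%, with a median of 0.17 beside 0.01 over all genes. The 1 gene without overlap was Zbtb46, higher in light (log2 fold change 1.01 ± 0.53, edgeR adjusted p = 1, exact permutation p = 0.1), beside 10.1% of all genes higher without overlap, and 0 genes were lower, beside 8.06%. Itgax had 1.01 ± 1.00, Xcr1 0.85 ± 1.31, Batf3 0.74 ± 0.73, Ly75 0.28 ± 0.53 and Cd209a 0.05 ± 1.26. Ccr7 had -0.54 ± 0.65 and Clec9a -0.91 ± 1.16. Flt3 summed to 3 counts in light and 16 in dark, a ratio of 0.207 (exact counting interval 0.0387 to 0.724).

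Macrophage genes were higher in the same P815-M light tumors. The 10 macrophage and monocyte genes summed to 1326 to 1623 CPM in P815-M light and 606 to 895 CPM in P815-M dark, without overlap. Fold changes were above 0 for 10 of 10, beside 50.7% of all genes. Of these, 2 had an unadjusted p under 0.05, beside 2.71% of all genes, and 0 were called, beside 0%. Without the deep libraries C1qa, a complement gene of macrophages, was called there (1.09 ± 0.23, edgeR adjusted p = 0.0355), beside 0.927% of all genes. In P815-IFNG the same sum ran from 549 to 1713 CPM in light and from 533 to 1567 CPM in dark, lowest in the deep libraries. In replicate order, the macrophage sum in P815-M light was 1623, 1504 and 1326 CPM. Itgax there had 13.5, 19.6 and 48.8 CPM, and Zbtb46 6.23, 7.66 and 3.58 CPM. The sum in P815-M dark was 830, 606 and 895 CPM. Itgax there had 32.8, 5.21 and 2.47 CPM, and Zbtb46 2.73, 2.60 and 3.29 CPM. The part of macrophages in the values of Itgax and Zbtb46 was not tested.

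Whether light acted differently on both lines was then fitted directly. It called 0 of the 10 genes beside 0% of all genes, with 0 at an unadjusted p under 0.05 beside 1.66%, and DESeq2 likewise had 0. The fitted differences, P815-IFNG minus P815-M, ran from -2.49 for Cd209a to 0.49 on the log2 scale, and the smallest unadjusted p was 0.0765, for Zbtb46. Without the deep libraries Itgax (unadjusted p = 0.0483, edgeR adjusted p = 0.647) and Cd209a (unadjusted p = 0.0101, edgeR adjusted p = 0.553) were below 0.05 before adjustment, or 2 of 9 beside 7.7% of all genes in that fit.

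Between the lines in light, 0 of the 10 genes passed beside 0.016% of all genes, and 0 had an unadjusted p under 0.05 beside 6.79%. DESeq2 called 0 and put 1 gene there, Itgax (unadjusted p = 0.0397, DESeq2 adjusted p = 0.570). Over all genes the median log2 fold change of P815-IFNG against P815-M was 0.15, and over the 10 genes it was -0.53, with 8 of 10 below 0 beside 43% of all genes and 2 above 0 beside 56.7%. Itgax (-2.09 ± 1.04, edgeR adjusted p = 0.629) and Batf3 (-1.02 ± 0.73, edgeR adjusted p = 0.648) were lower in P815-IFNG without overlap, each with an exact permutation p of 0.1, or 2 of 10 genes beside 7.71% of all genes. No gene of the 10 was higher without overlap, beside 9.23%. Xcr1 had -1.20 ± 1.33, Cd209a -0.99 ± 1.23, Zbtb46 -0.50 ± 0.51, Ly75 -0.41 ± 0.52 and Clec9a -0.19 ± 1.18. Ccr7 and Flt3 were above 0. Ccr7 had 0.78 ± 0.65, and it was -0.32 ± 0.48 without the deep libraries. Flt3 had 3 counts in each line outside the deep library, and the ratio of P815-IFNG to P815-M was 1.38 (exact counting interval 0.185 to 10.3).

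In the dark, 0 of the 10 genes passed beside 0.0106% of all genes, and 0 had an unadjusted p under 0.05 beside 6.86%, in DESeq2 also 0. The median over all genes was 0.33 and that of the 10 genes 0.12, with 6 of 10 above 0 beside 64.2% and 4 below 0 beside 35.5%. Zbtb46 was higher in P815-IFNG without overlap (0.91 ± 0.52, edgeR adjusted p = 0.604, exact permutation p = 0.1), beside 10.9% of all genes, and 0 genes were lower without overlap, beside 10.3%. Cd209a had 1.50 ± 1.22 and rested on P815-IFNG dark replicate 2, without which its value was -0.14. Without the deep libraries it had 1.91 ± 0.90 (unadjusted p = 0.0498, edgeR adjusted p = 0.256) and was the 1 of 9 members below 0.05 before adjustment, beside 19.5% of all genes in that fit. Clec9a had 0.72 ± 1.07, Ccr7 0.57 ± 0.64, Itgax 0.18 ± 1.00, Ly75 0.06 ± 0.52, Flt3 -0.11 ± 1.02, Xcr1 -0.50 ± 1.32 and Batf3 -0.73 ± 0.74. Both comparisons between lines have deep libraries in P815-IFNG alone. The comparisons of light and of line share their groups, so their values for one gene are not independent.

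**Figure D4:**
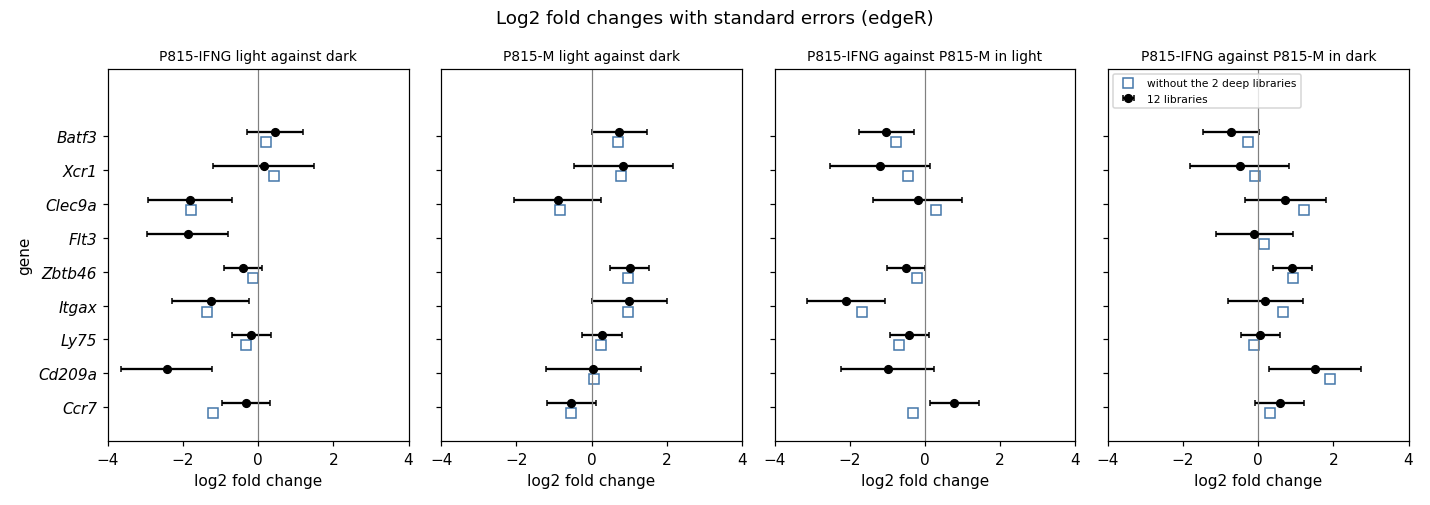
Black points give the log2 fold change (x axis) of each gene (y axis) over 12 libraries in 4 comparisons with the standard error as a bar, and open squares the value without the 2 deep libraries. No gene was called, and the Ccr7 value between the lines in light moves from 0.78 to -0.32. Values resting on 3 or fewer counts in a group, and Siglech, are left out.

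Other genes of the same cells gave a wider view. Of 44 further dendritic cell genes, 42 could be tested and 0 were called in any of the 5 comparisons. Beside this, 0%, 0%, 0.016%, 0.0106% and 0% of all genes were called, in the order of the next sentence. Those with an unadjusted p under 0.05 numbered 0, 1, 1, 4 and 0 of 42 for light in P815-IFNG, light in P815-M, the lines in light, the lines in dark, and the difference in the light effect. The shares over all genes were 2.18%, 2.71%, 6.79%, 6.86% and 1.66% in the same order. DESeq2 gave 0, 2, 1, 5 and 0. In P815-IFNG light against dark 24 were above 0 and 18 below, beside 48.3% and 51.6% of all genes, with a median of 0.05 beside -0.02. In the dark between lines 30 were above 0 and 12 below, beside 64.2% and 35.5% of all genes, with a median of 0.55 beside 0.33. Without the deep libraries 4 of the 44 listed genes were called between the lines in dark, in a fit that called 2.19% of all genes: Clec10a, a lectin of type 2 cells (2.00 ± 0.32, edgeR adjusted p = 0.00495), Sirpa, a phagocyte inhibitory receptor (1.44 ± 0.29, edgeR adjusted p = 0.0187), Klf4, a transcription factor (1.48 ± 0.32, edgeR adjusted p = 0.0254), and Itgae, the integrin CD103 (-1.65 ± 0.38, edgeR adjusted p = 0.0326). In the same fit the macrophage genes C1qa (1.59 ± 0.25) and Mertk (2.704 ± 0.51) were among those called, with edgeR adjusted p of 0.00473 and 0.0136.

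The further lists are described by the genes with the most CPM in each. Among the type 1 genes these were Snx22 (1575 to 3152 CPM in the 10 libraries, 248 and 243 in the deep ones) and Wdfy4, which is needed for cross-presentation (77.2 to 124, and 78.6 and 108). Snx22 shares 28.5% of its exon bases with Ppib on the opposite strand. The type 2 list was led by the receptor Notch2 (131 to 177 CPM, and 167 and 181) and the integrin Itgam (38.0 to 224 CPM, and 68.9 and 31.5). Those of the mature list were the cytokine signalling inhibitor Socs2 (20.5 to 46.8 CPM, with 99.2 and 137 in the deep libraries) and the actin bundler Fscn1 (11.7 to 47.9 CPM, and 9.86 and 11.8), and those of the plasmacytoid list Bst2 (90.6 to 211 CPM, and 51.3 and 38.4) and Runx2 (78.1 to 133 CPM, and 65.9 and 57.8). Of 8 ligands and growth factors, Csf1 (81.2 to 201 CPM, and 135 and 83.7), whose receptor CSF1R is not among the 10 members, and Flt3l, the ligand of FLT3 (10.5 to 21.9 CPM, with 32.8 and 21.1 in the deep libraries) had the most CPM. Of the 8, 3 could be tested with 0 called in any comparison, beside 0 to 0.016% of all genes. In P815-IFNG light against dark the log2 fold change of Flt3l was 0.37 ± 0.37 (edgeR adjusted p = 1), beside -1.88 for its receptor Flt3.

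Other cells could hold several of the 10 genes, and their markers were read beside them. The macrophage genes Adgre1 (96.1 to 180 CPM in the 10 libraries, with 122 and 105 in the deep ones) and Csf1r (224 to 348 CPM, with 39.6 and 42.5 in the deep ones) had counts in every tumor. Csf1r, which is also in the macrophage sum above, shares 15.1% of its exon bases with Hmgxb3 on the opposite strand. The 8 T cell genes summed to 8.78 to 42.8 CPM in the 10 libraries and to 19.98 and 13.1 in the deep ones, with Cd3e at 0 to 6.21 CPM (0.162 and 0.112 in the deep ones) and Cd3d at 0 to 2.73 CPM (0.255 and 0.156). The 6 B cell genes summed to 5.23 to 16.6 CPM and to 0.880 and 0.469, with Ms4a1 at 0 to 1.61 CPM and at 0 in both deep libraries. The 5 NK cell genes summed to 17.6 to 60.4 CPM and to 86.0 and 51.3, mostly from Prf1, a perforin gene that T cells share (14.6 to 52.3 CPM, and 77.8 and 50.3), while Ncr1 and Klrb1c each ran from 0 to 2.34 CPM (1.88 and 0.201, and 1.204 and 0.491). The 5 neutrophil genes summed to 35.8 to 61.8 CPM and to 204 and 197, mostly from the chemokine receptor gene Cxcr2 (23.5 to 52.3 CPM, and 195 and 191), while S100a8 ran from 0 to 1.17 CPM (0.810 and 0.156) and S100a9 from 0 to 0.447 CPM (1.25 and 0.156). The lymph node genes Glycam1 (0 to 0.976 CPM, and 0 and 0.0893) and Madcam1 (0 to 1.21 CPM, and 0 and 0.0670) were low. Cxcl13, the other gene of that list, had 0 to 1.34 CPM in the 10 libraries and 5.37 and 8.71 in the deep ones. The Langerhans cell gene Cd207 and the keratinocyte genes Krt5 and Krt14 had 0 counts in all 12 libraries, and Epcam reached 1.46 CPM in the 10 libraries and was at 0 in the deep ones. Krt10, another keratinocyte gene, had 2.605 to 10.5 CPM in the 10 libraries and 0.394 and 0.290 in the deep ones. A gene on the opposite strand shares 6.91% of its exon bases. The endothelial genes Pecam1 and Cdh5 ran from 16.9 to 62.0 CPM and from 0 to 34.2 CPM, with 21.6 and 31.4 and with 1.18 and 3.44 CPM in the deep libraries. The mast cell genes Kit (317 to 585 CPM, with 666 and 616 in the deep libraries) and Cpa3 (675 to 1100 CPM, with 7570 and 5469 in the deep libraries) were high, and are known from mast cells and their tumors. Gata2, of the same list, had 776 to 1593 counts in the 10 libraries, and 29211 and 34694 in the deep ones. Its other genes were scarce: Hdc (0 to 18 counts, and 108 and 66), Tpsb2 (0 to 12, and 57 and 35), Ms4a2 (0 to 2, and 12 and 4) and Fcer1a (0 to 1, and 3 and 0). Which cells gave rise to the counts of each marker was not tested.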

How the data were processed

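The authors trimmed reads of stranded mRNA libraries with fastp, mapped them with STAR 2.7.9a on mm10 with knock-in sequences added, and counted them per gene with HTSeq 0.13.5 at default settings. The kit's first reads lie opposite to the transcript, and whether the counting setting matched it in each library was not tested. The deposited values are raw counts per gene. The annotation release was not given in the sources used here, and the authors' removal of mitochondrial genes and batch adjustment are not in these values. The paper's DESeq2 results were not used.

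The 13 mitochondrial rows were removed, and the 18804 genes with a total of at least 10 counts were fitted together in 12 libraries (R 4.3.3, edgeR 4.0.16, TMM, 4 group means, quasi-likelihood test, two-sided). DESeq2 1.42.0 and ComBat-seq (sva 3.50.0) were among the alternatives. Permutation tests were exact and two-sided. Positions and exon lengths come from GENCODE M21 (GRCm38) and promoter sequences from RefSeq. The 10 members and all lists were chosen with earlier results of these data known. Named genes were all 10 members, list genes called in the fit, the 2 most abundant of each dendritic cell list and of the ligand list, and the first 2 of each list of another cell type. Other genes were named after their values were seen. These were genes called without the deep libraries, the further endothelial and mast cell genes, and the Ccl19 and Ccl21 genes. They also include Krt5, Krt14, Krt10, Cxcl13, Prf1, Cxcr2, Gm13571, Ppib and Hmgxb3. Library labels give replicate numbers in each group, and the deviations of same-numbered P815-IFNG light and dark tumors from their group means correlated at 0.58, 0.58 and 0.87, over 0.1 in every pair, where replicate 3 is the deep library in both. Between other groups this was not so for every pair. Deviations from a group mean sum to 0, so a deep replicate 3 in both P815-IFNG groups also shifts replicates 1 and 2. These correlations therefore cannot show whether same-numbered tumors were paired. Tumors are from separate mice. Counts of 2 libraries of 1 group always differed beyond sampling noise (chi-square per degree of freedom from 2.97 to 631). Some genes that the rule names are not reported here.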

Additional observations from a re-analysis of the deposited data

How the results depend on the processing

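The count of members called was 0 in the 5 comparisons under every alternative run: DESeq2, its size factors, filterByExpr, no filter, mitochondrial rows kept, only the libraries compared (in 4 of the 5, since the difference needs all groups), the replicate block, a term for or removal of the deep libraries, ComBat-seq, a call without a minimum fold change, and the removal of any 1 library. With the replicate block the members called stayed at 0 and no call changed. The number of all genes called did change: from 0 to 166 for P815-IFNG light against dark, 0 to 341 for P815-M, 0 to 263 for the lines in light, 0 to 545 for the lines in dark and 0 to 41 for the difference, all highest with ComBat-seq except P815-M, which was highest with only its own libraries. The cause was not tested.

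Of 34 fold changes, 18 kept 1 sign under every alternative. In P815-IFNG light against dark Xcr1 turned to -0.015 with the replicate block, -0.76 with a term for the deep libraries and -1.47 with ComBat-seq. Between the lines in light Clec9a turned to 0.46, 0.29 and 0.36 with that term, without the deep libraries and with ComBat-seq, and Ccr7 to -0.32 without the deep libraries. Between the lines in dark Ly75 turned to -0.11 with DESeq2, -0.11 with its size factors, -0.014 with filterByExpr, -0.17 with the deep term, -0.12 without the deep libraries and -0.23 with ComBat-seq. There Flt3 turned to 0.033 with the replicate block, 0.054 with the deep term and 0.16 without the deep libraries, Xcr1 to 0.55 with the deep term and 0.98 with ComBat-seq, and Ccr7 to -0.0048 with ComBat-seq. The cause of these was not tested.

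Leaving out 1 library turned the sign of 14 values. In P815-IFNG light against dark the ranges were -0.44 to 0.20 for Ly75 (turned without light replicate 2), -0.072 to 1.28 for Batf3 (dark replicate 3), -1.72 to 1.41 for Xcr1 (light replicate 1, dark replicates 2 and 3) and -1.36 to 0.048 for Ccr7 (light replicate 1). In P815-M light against dark they were -1.51 to 0.52 for Clec9a (dark replicate 2), -0.47 to 1.05 for Cd209a (light replicates 1 and 3, dark replicates 1 and 3) and -1.01 to 0.10 for Ccr7 (dark replicate 1). Between the lines in light they were -0.70 to 0.32 for Clec9a (P815-IFNG or P815-M replicate 3) and -0.29 to 1.25 for Ccr7 (P815-IFNG replicate 3). Between the lines in dark they were -0.17 to 0.30 for Ly75 (P815-IFNG replicates 1 and 3, P815-M replicate 2), -0.53 to 2.02 for Itgax (P815-IFNG replicate 1, P815-M replicates 2 and 3), -0.62 to 0.95 for Flt3 (P815-IFNG replicate 3, P815-M replicate 2), -1.60 to 0.23 for Batf3 (P815-M replicate 1) and -0.14 to 2.50 for Cd209a (P815-IFNG replicate 2).

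The number of members detected depended on the floor chosen. With a floor of 10 counts in place of 3, the genes detected fell to 1 in P815-IFNG light replicate 2, to 4 in P815-M light replicate 3, P815-M dark replicate 1 and P815-M dark replicate 2, and to 2 in P815-M dark replicate 3.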
